A study of Mus musculus with 12 samples.

Results

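Metallothioneins are small, cysteine-rich proteins that bind zinc and copper in the cytosol, and their genes are switched on by free zinc through the metal-sensing transcription factor Mtf1, and also by glucocorticoids and stress. Zinc leaves the cytosol through exporters of the Slc30 family and enters it through importers of the Slc39 family, so the metallothioneins and both transporter families together set how much free zinc a cell holds. The lung uses the same system, and metallothionein induction is a textbook response of its epithelium to metals and oxidants. Described here are 6 genes of this system out of the 30743 rows of a gene count table from sorted mouse lung cancer cells. They are the metallothioneins Mt1 and Mt2, the transcription factor Mtf1, the exporter Slc30a1 and the importers Slc39a10 and Slc39a14. The 6 genes were selected by symbol with results of these libraries already known, so their values are given as levels, differences and standard errors (SE), with no test.

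The 12 libraries hold RNA from cells sorted from lung tumours of mice of a mixed BL6/129 strain. KT tumours (4 libraries) are the reference, and KT, which the labels do not spell out, is the background that the other groups carry too. Lkb1-deleted tumours (3 libraries) are KT;Lkb1f/f, with floxed alleles of Stk11, the gene of the kinase Lkb1. Sik-targeted tumours (5 libraries) are KT;H11LSL-Cas9, which carry a Cas9 allele behind a stop cassette that Cre removes, with guides against the salt-inducible kinases, a family that Lkb1 activates. Their titles divide them into sgSik1 (3 libraries) and sgSik1-3 (2 libraries), and what the range in sgSik1-3 covers is not spelled out. No KT or Lkb1-deleted title names Cas9 or a guide. Loss of Sik kinases and the presence of Cas9 and guides therefore cannot be told apart in comparisons with the Sik-targeted group. Lentiviral Cre is named in the alternative labels of KT replicates 2, 3 and 4 and not in that of KT replicate 1. No age and no promoter driving Cre is stated in the labels. They also do not say that the libraries of a group came from separate animals, so each p-value reflects only how far these libraries spread, part of which can be technical. Cells were freed from the tumours by collagenase, dispase and trypsin in 30 min at 37 °C, and the sort removed blood and endothelial cells by their surface markers CD45, CD31, F4/80 and Ter119.

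Mt1 lies at chr8:94179082-94180327 and Mt2 at chr8:94172664-94173568, both on the plus strand of GRCm38. The coding sequences are shown because the 2 genes can only be counted apart where they differ. They are from the GENCODE vM21 transcripts, with the cysteine codons in capitals.
Mt1: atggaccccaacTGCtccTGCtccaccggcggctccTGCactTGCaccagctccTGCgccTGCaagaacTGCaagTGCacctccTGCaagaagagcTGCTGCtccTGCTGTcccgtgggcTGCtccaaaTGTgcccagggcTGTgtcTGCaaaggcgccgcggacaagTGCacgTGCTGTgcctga
Mt2: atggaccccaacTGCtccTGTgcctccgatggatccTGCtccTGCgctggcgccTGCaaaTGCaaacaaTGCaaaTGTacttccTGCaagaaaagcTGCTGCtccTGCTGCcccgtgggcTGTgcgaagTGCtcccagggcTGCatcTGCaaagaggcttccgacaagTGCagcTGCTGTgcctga
Each runs over 186 bases and encodes 61 amino acids, of which 20 are cysteines, the residues that hold the metal. All 20 cysteine positions are shared, and 148 of the 186 bases (79.6%) are the same. No stretch of 50 bases of any annotated Mt1 transcript occurs in a transcript of another gene, on either strand, Mt2 included. Of the 50-base stretches of Mt2, 45.8% also occur in Gm45774, an antisense transcript with no row in the count table. No source used here states the strand setting of the counting, so reads of Mt2 and of that antisense transcript cannot be told apart.

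The core of the metal response element, the sequence that Mtf1 binds, was searched as TGCACNC or TGCGCNC, 7 bases on both strands. The search used RefSeq windows of 300 bases, from 250 before to 50 after a RefSeq start (GRCm38.p6). These starts can differ from the ends of the GENCODE gene coordinates given in this text. Windows were found for 5 of the 6 genes (6 windows), and Slc39a14 had no entry. The 250 bases before the start are shown for the 3 genes with a match, the genes in which metal control is best known, with matches in capitals.
Mt2 promoter, chr8:94172368-94172617, plus strand: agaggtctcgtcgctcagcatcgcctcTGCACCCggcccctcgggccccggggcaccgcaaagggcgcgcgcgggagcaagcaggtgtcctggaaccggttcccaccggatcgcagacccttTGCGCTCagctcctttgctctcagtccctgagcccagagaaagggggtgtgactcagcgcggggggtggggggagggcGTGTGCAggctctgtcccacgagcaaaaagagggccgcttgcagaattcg
Mt1 promoter, chr8:94178839-94179088, plus strand: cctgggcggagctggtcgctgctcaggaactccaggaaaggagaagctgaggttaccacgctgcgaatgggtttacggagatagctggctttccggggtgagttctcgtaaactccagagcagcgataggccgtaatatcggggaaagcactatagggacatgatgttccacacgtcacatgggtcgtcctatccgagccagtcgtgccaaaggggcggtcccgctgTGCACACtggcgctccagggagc
Mt1 start, chr8:94179089-94179118, plus strand: tcTGCACTCcgcccgaaaagTGCGCTCggc
Slc30a1 promoter, chr1:191906531-191906780, plus strand: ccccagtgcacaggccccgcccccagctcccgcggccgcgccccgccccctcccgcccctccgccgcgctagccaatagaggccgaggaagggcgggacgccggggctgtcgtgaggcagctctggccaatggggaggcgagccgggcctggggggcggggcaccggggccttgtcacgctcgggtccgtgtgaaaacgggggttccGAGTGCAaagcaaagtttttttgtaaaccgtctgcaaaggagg
Counted from the RefSeq start, the Mt2 window held 4 matches, at -223, -128, -50 and 5. The Mt1 window held 3, at -23, 3 and 21, and the Slc30a1 window held 2, at -43 and 31. Of 32851 RefSeq promoter windows of this length, 25.7% held at least 1 match, 7.11% at least 2, 1.97% at least 3 and 0.517% at least 4. No match was found in the Mtf1 window or in either Slc39a10 window, which says only that these letters are not there. The Slc39a10 windows, chr1:46925727-46926026 and chr1:46853569-46853868, lie outside and inside the GENCODE span of the gene. The Mtf1 window, chr4:124802299-124802598, begins after the GENCODE start. The GENCODE starts of these 2 genes were thus not searched. A match is a run of letters and was not tested as a binding site.

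Total counts were 3847760 to 13955181 per library. KT replicates 2 and 3 stood apart, with 23582 and 23747 genes detected against 14283 to 16533 in the other 10 libraries. The 4 most abundant transcripts took from 18.4% of counts (KT replicate 1) to 74.2% (sgSik1 replicate 1). Levels are therefore given as CPM, counts scaled to a library of 1000000, on library sizes adjusted by the trimmed mean of M values (TMM), which follows the bulk of genes and not those transcripts. Where a value depends on that scaling, the difference on plain library totals is given beside it. On plain totals the median log2 difference over all 13575 tested genes moved from -0.04 to -0.78 for Lkb1 deletion against KT and from -0.03 to -1.06 for Sik targeting against KT. Stk11 was 9.23 to 16.6 CPM in the Lkb1-deleted libraries and 22.6 to 137 CPM in the others. Sik1 was higher in the Sik-targeted (105 to 514 CPM) and Lkb1-deleted (149 to 214) libraries than in KT (38.2 to 59.6), and so was Sik2 (12.7 to 28.1 and 17.4 to 31.8 against 4.72 to 10.4). Sik3 was lower than in KT (26.9 to 46.7 CPM) in sgSik1-3 (8.74 to 11.9) and also in sgSik1 (9.17 to 21.0), whose titles name Sik1 alone. An edit by a guide need not lower a gene's RNA, so these levels do not settle which genes were hit. The labelled cells are cancer cells of an epithelium, and Epcam, an epithelial adhesion protein, was 118 CPM or higher in every library. Of the sorted-out leukocytes, 7 marker genes summed to 171 to 228 CPM in KT (0 to 1 of them at 0), 79.3 to 311 in Lkb1-deleted (3 at 0) and 98.9 to 311 in Sik-targeted libraries (3 to 5 at 0). Among them Ptprc (CD45) was 1.06 to 7.89 CPM in KT and at most 0.724 CPM elsewhere, and Lcp1, the most abundant by its mean in each group, overlapped between groups. Cd53 went the other way, from 3.40 to 7.30 CPM in KT to 0.720 to 144 in Lkb1-deleted and 12.5 to 144 in Sik-targeted libraries. The endothelial gene Pecam1 (CD31) was 32.8 and 31.4 CPM in Lkb1-deleted replicates 2 and 3 and 0 to 9.05 CPM in the other 10. These are bulk libraries, in which fewer cells of a type and less RNA per cell cannot be told apart.

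Mt2 separated the groups most clearly. It was 19.0, 20.3, 17.5 and 34.0 CPM in KT replicates 1 to 4, and 80.8, 91.2 and 167 CPM in Lkb1-deleted replicates 1 to 3. It was 995, 182 and 251 CPM in sgSik1 replicates 1 to 3, and 357 and 253 CPM in sgSik1-3 replicates 1 and 2. The 3 genotype groups did not overlap: every Lkb1-deleted library lay above every KT library, and every Sik-targeted library above every Lkb1-deleted one. The means were 22.7 ± 7.59 CPM in KT (SD, n = 4), 113 ± 47.1 in Lkb1-deleted (n = 3) and 408 ± 334 in Sik-targeted tumours (n = 5). On the log2 scale Mt2 differed from KT by 2.32 (SE 0.53) with Lkb1 deletion, 4.99-fold. With Sik targeting it differed by 4.17 (SE 0.54), 18.0-fold. Between the Lkb1-deleted and Sik-targeted groups the difference was -1.85 (SE 0.54), and -1.21 without sgSik1 replicate 1. On plain library totals the differences from KT were smaller, 1.61 (SE 0.44) and 2.93 (SE 0.43), and KT libraries still lay below all others. Mt2 counts per 1000000 plain counts were 31.4 to 38.6 in KT, 70.3 to 142 in Lkb1-deleted and 139 to 392 in Sik-targeted tumours, and the last 2 ranges met.

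Mt1 had the same order of group means with more overlap. It was 43.3, 26.7, 21.8 and 27.6 CPM in KT and 32.7, 43.8 and 58.2 CPM in the Lkb1-deleted replicates, so those 2 groups overlapped. It was 516, 56.4 and 109 CPM in sgSik1 and 109 and 174 CPM in sgSik1-3. All 5 Sik-targeted libraries lay above all KT libraries, and sgSik1 replicate 2 lay within the Lkb1-deleted range. The means were 29.8 ± 9.30 CPM in KT, 44.9 ± 12.8 in Lkb1-deleted and 193 ± 186 in Sik-targeted tumours. The log2 difference from KT was 0.59 (SE 0.57) with Lkb1 deletion and 2.69 (SE 0.55) with Sik targeting, and -2.10 (SE 0.60) between the 2. The Lkb1 difference was about as large as its error and its direction turned on plain library totals, at -0.16 (SE 0.51). The Sik difference kept its direction there, at 1.33 (SE 0.46), but sgSik1 replicate 2, at 43.0 counts per 1000000, then lay within the KT range of 31.4 to 71.5. Without sgSik1 replicate 1, the library with the highest Mt1 and Mt2, the Sik differences from KT were 1.91 for Mt1 and 3.52 for Mt2. The Mt1 difference between Lkb1-deleted and Sik-targeted tumours was then -1.32.

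**Figure D1:**
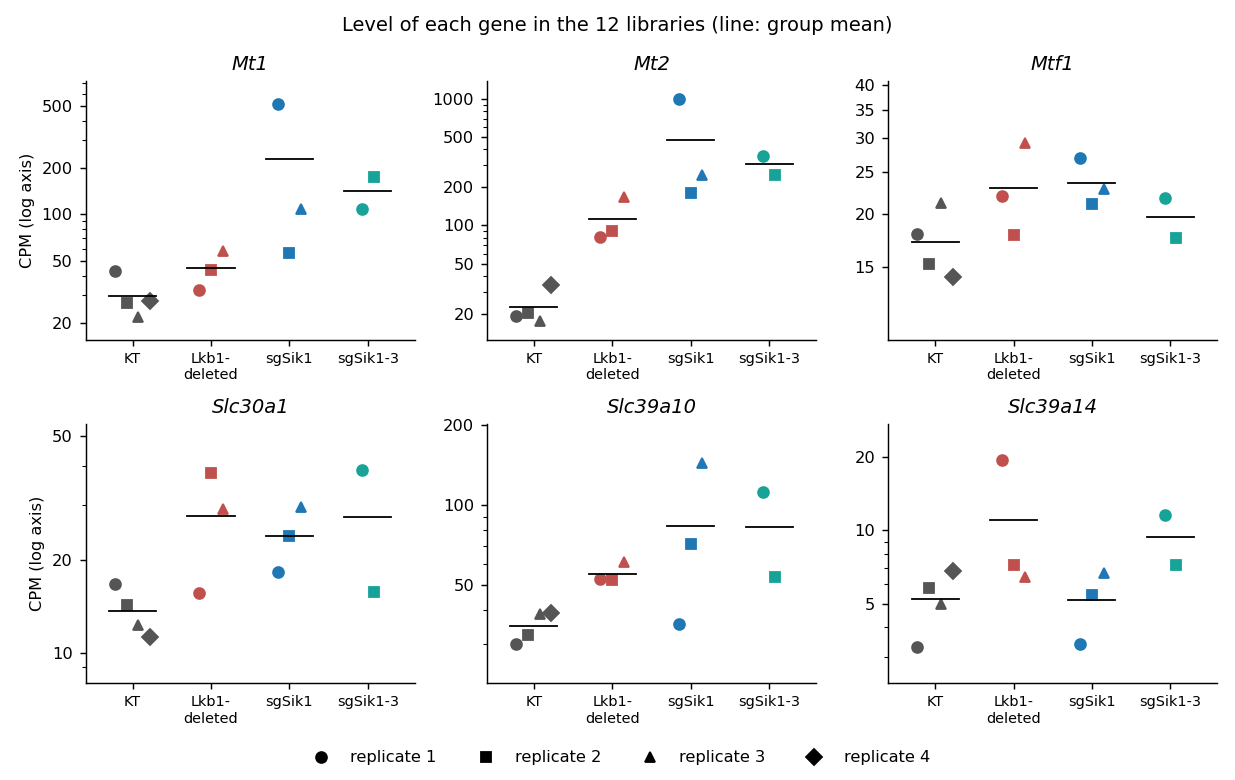
CPM on TMM-scaled library sizes (log axis) of the 6 genes in each of the 12 libraries, 1 panel per gene; symbols give the replicate number and lines the group means. Mt2 lay at 17.5 to 34.0 CPM in KT, 80.8 to 167 in Lkb1-deleted and 182 to 995 in Sik-targeted libraries, while the Mtf1 groups overlapped.

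Because both genes are counted in the same library, the ratio of Mt2 to Mt1 counts does not depend on how libraries are scaled. It was 0.440, 0.763, 0.801 and 1.23 in KT replicates 1 to 4. It was 2.47, 2.08 and 2.87 in the Lkb1-deleted replicates, 1.93, 3.23 and 2.30 in sgSik1, and 3.28 and 1.46 in sgSik1-3. Every Lkb1-deleted and Sik-targeted library lay above every KT library. The mean was 0.809 ± 0.325 in KT (SD, n = 4), 2.47 ± 0.395 in Lkb1-deleted (n = 3) and 2.44 ± 0.802 in Sik-targeted tumours (n = 5), so the last 2 differed by less than their spread. The nearest libraries were KT replicate 4, with a 95% interval for counting error of 0.970 to 1.56, and sgSik1-3 replicate 2, with 1.34 to 1.58, and these intervals overlapped. Intervals of this kind cover counting error only. The ratio was read after the levels of both genes were known and is a description of these libraries.

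**Figure D2:**
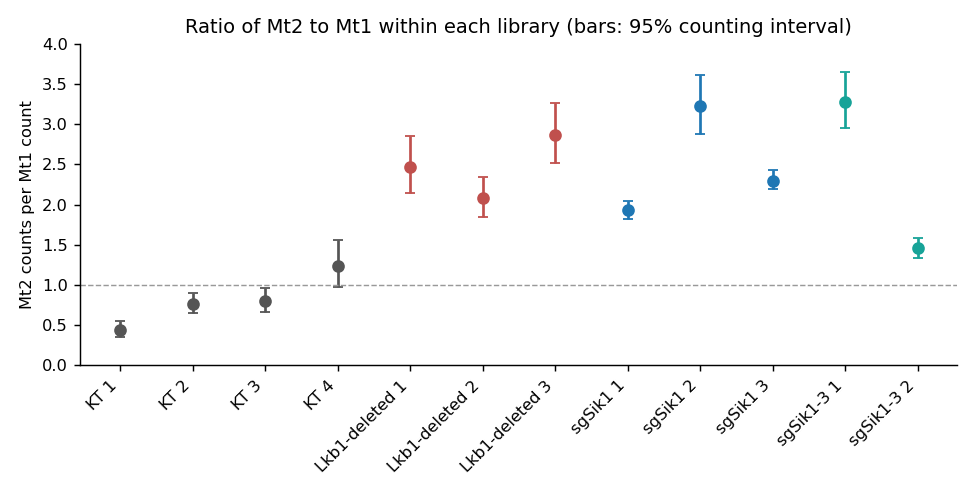
Mt2 counts per Mt1 count in each library (points), with 95% counting intervals (bars) and a dashed line at equal counts. The 4 KT libraries sat between 0.440 and 1.23, and the other 8 between 1.46 and 3.28.

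Mtf1 encodes the zinc-finger factor that senses zinc and activates metallothionein genes and Slc30a1. It lies at chr4:124802104-124849800 on the plus strand of GRCm38. Its level was 17.9, 15.3, 21.2 and 14.2 CPM in KT, 21.99, 17.8 and 29.2 CPM in Lkb1-deleted, 27.0, 21.1 and 22.8 CPM in sgSik1 and 21.7 and 17.6 CPM in sgSik1-3 tumours. All groups overlapped. The log2 difference from KT was 0.42 (SE 0.31) with Lkb1 deletion and 0.36 (SE 0.28) with Sik targeting, each less than 1.5 times its SE, and both turned direction on plain library totals, at -0.39 (SE 0.47) and -0.71 (SE 0.41). Of its 50-base stretches 7.55% are shared with 1110065P20Rik on the opposite strand. Levels of Mtf1 RNA do not show its activity, which zinc binding controls in the protein.

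Slc30a1 encodes the exporter that carries zinc out through the plasma membrane and is, with Mt1 and Mt2, a known Mtf1 target. It lies at chr1:191906767-191913247 on the plus strand. Its level was 16.7, 14.3, 12.4 and 11.2 CPM in KT and 15.7, 38.0 and 29.2 CPM in Lkb1-deleted tumours. It was 18.2, 23.8 and 29.6 CPM in sgSik1 and 39.0 and 15.7 CPM in sgSik1-3. KT was the lowest group by its mean, 13.6 ± 2.38 CPM, but 1 Lkb1-deleted and 1 sgSik1-3 library lay within its range, and the Lkb1-deleted (27.6 ± 11.2) and Sik-targeted (25.3 ± 9.35) groups were alike within their spread. The log2 difference from KT was 1.02 (SE 0.39) with Lkb1 deletion and 0.89 (SE 0.35) with Sik targeting, and 0.29 (SE 0.56) and -0.07 (SE 0.49) on plain library totals. Of its 50-base stretches 8.01% also occur in the antisense transcript 1700034H15Rik.

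Slc39a10 encodes an importer that brings zinc in through the plasma membrane, and it lies at chr1:46807544-46892852 on the minus strand. Its level was 29.9, 32.2, 38.6 and 39.0 CPM in KT and 52.6, 51.9 and 60.6 CPM in Lkb1-deleted tumours, which did not overlap. It was 35.5, 70.9 and 143 CPM in sgSik1 and 112 and 53.2 CPM in sgSik1-3. The Sik-targeted range thus took in the whole Lkb1-deleted range, and sgSik1 replicate 1 lay among the KT libraries. The means were 34.9 ± 4.60 CPM in KT, 55.0 ± 4.85 in Lkb1-deleted and 82.9 ± 44.0 in Sik-targeted tumours. The log2 difference from KT was 0.66 (SE 0.40) with Lkb1 deletion and 1.25 (SE 0.36) with Sik targeting. On plain library totals these were -0.10 (SE 0.61), in the other direction, and 0.45 (SE 0.54). The Sik-targeted library with the highest Mt1 and Mt2, sgSik1 replicate 1, was the one with the lowest Slc39a10.

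Slc39a14 encodes an importer of zinc, iron and manganese that is known as an inflammation-responsive gene in liver. It lies at chr14:70303469-70351425 on the minus strand. Its level was 3.30, 5.81, 4.98 and 6.79 CPM in KT and 19.6, 7.20 and 6.43 CPM in Lkb1-deleted tumours. It was 3.41, 5.41 and 6.66 CPM in sgSik1 and 11.6 and 7.24 CPM in sgSik1-3. Only Lkb1-deleted replicate 1 and sgSik1-3 replicate 1 stood well above the rest. The log2 difference from KT was 1.09 (SE 0.49) with Lkb1 deletion, and 0.33 on plain library totals. Without Lkb1-deleted replicate 1 it was 0.40 (SE 0.50). With Sik targeting it was 0.40 (SE 0.44), and -0.54 (SE 0.52) on plain library totals. Between the Lkb1-deleted and Sik-targeted groups it was 0.69 (SE 0.46), and -0.02 (SE 0.49) without Lkb1-deleted replicate 1, so that library decided both values.

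Over the 6 genes, 2 did not overlap between Lkb1-deleted and KT libraries (Mt2 and Slc39a10, both higher), where 14.7% of all 13575 tested genes did not overlap. Between Sik-targeted and KT libraries 2 did not overlap (Mt1 and Mt2, both higher), against 16.1% of tested genes, and between Lkb1-deleted and Sik-targeted libraries 1 did not (Mt2, lower with Lkb1 deletion), against 5.38%. The genes were chosen with these comparisons in view, so the counts describe the choice. Without KT replicates 2 and 3, the log2 differences from KT with Lkb1 deletion were 0.37 for Mt1, 2.11 for Mt2, 0.54 for Mtf1, 1.01 for Slc30a1, 0.70 for Slc39a10 and 1.16 for Slc39a14, with SE between 0.41 and 0.73. With Sik targeting they were 2.41, 3.90, 0.44, 0.85, 1.26 and 0.43 in the same order, with SE between 0.37 and 0.77, so no direction turned. All 6 had enough counts to pass the filter on low counts in both fits. Per kilobase of transcript, the scale on which genes can be ranked, Mt1 (54.3 ± 16.9 CPM per kb) and Mt2 (44.4 ± 14.9) led in KT and did not differ beyond their spread. Slc39a10 followed at 6.35 ± 0.837, Slc30a1 at 2.59 ± 0.454 and Mtf1 at 2.25 ± 0.409, the last 2 within their spread, and Slc39a14 was lowest at 1.06 ± 0.300. In Lkb1-deleted tumours Mt2 (221 ± 92.2) stood above Mt1 (81.8 ± 23.3). In Sik-targeted tumours their means were 798 ± 654 and 352 ± 339, within their spread between libraries. Within each of these 5 libraries, though, Mt2 counts exceeded Mt1 counts, by a ratio of 1.46 to 3.28. The order of the other 4 genes by their mean per kilobase was the same in all 3 groups.

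Within the Sik-targeted libraries, sgSik1-3 and sgSik1 were compared in a fit of the 4 titles (15303 genes). In this comparison 0 genes (0% of those tested) passed an adjusted p of 0.05 in edgeR's quasi-likelihood test, 528 had an unadjusted p under 0.05, and DESeq2 called 6. Among the 6 zinc genes 1 did not overlap, Slc39a14, which was higher in sgSik1-3 by 0.83 (SE 0.57), where 14.9% of tested genes did not overlap. The log2 difference was -0.68 (SE 0.68) for Mt1 and -0.64 (SE 0.62) for Mt2, and 0.80 and 0.52 without sgSik1 replicate 1, so their direction rested on that library. It was 0.18 (SE 0.48) for Slc30a1, which became -0.62 without sgSik1-3 replicate 1, and -0.27 (SE 0.40) for Mtf1. For Slc39a10 it was -0.03 (SE 0.50), and ran from -0.67 without sgSik1-3 replicate 1 to 0.62 without sgSik1 replicate 3. Both guide groups stood above KT for the metallothioneins: by 2.94 (SE 0.58) and 2.26 (SE 0.61) for Mt1 and by 4.41 (SE 0.56) and 3.77 (SE 0.57) for Mt2 in sgSik1 and sgSik1-3. These 2 comparisons share the KT libraries. Y-linked transcripts, 4 genes summed, were 70.4 and 49.2 CPM in sgSik1-3 and at most 1.71 CPM in sgSik1, so guide group and the sex of the mice cannot be told apart here. The same sum was 70.6 and 50 CPM in Lkb1-deleted replicates 2 and 3 and at most 0.424 CPM in Lkb1-deleted replicate 1 and KT. The comparisons of Lkb1-deleted and Sik-targeted libraries with KT are thus not balanced for sex either. The part of sex in those differences was not tested.

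**Figure D3:**
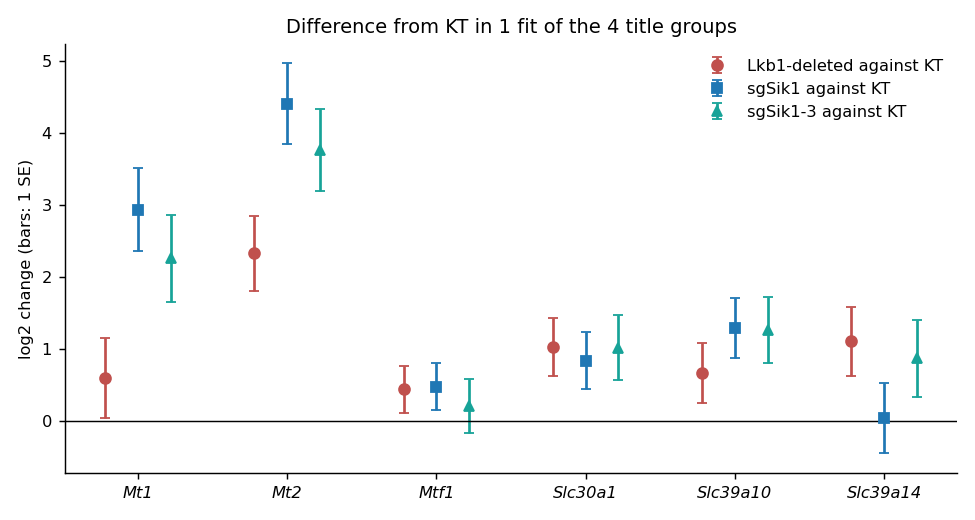
Log2 difference from KT (points) with 1 SE (bars) for the 6 genes in Lkb1-deleted, sgSik1 and sgSik1-3 tumours, from 1 fit of the 4 titles on TMM-scaled sizes; the 3 comparisons share the KT libraries. Mt2 stood highest in all 3, at 2.33, 4.41 and 3.77, and Mtf1 lay at 0.21 to 0.48.

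The other zinc genes, 23 in all, were read for the rest of the pathway: 9 exporters, 12 importers and the metallothioneins Mt3 and Mt4. Mt3 and Mt4, which are known from brain and from stratified squamous epithelium, had 0 counts in all 12 libraries, which allows a level of up to 0.164 to 0.853 CPM depending on the library. Of the 23, 15 had enough counts to be tested for Lkb1 deletion and Sik targeting. Their median log2 difference was -0.20 for Lkb1 deletion and 0.13 for Sik targeting, against -0.04 and -0.03 for all tested genes. Of the 15, 1 passed for Lkb1 deletion against KT, in the downward direction, at an adjusted p under 0.05, where 1.16% of all tested genes passed. For Sik targeting against KT 3 passed, 2 up and 1 down, where 12.4% passed. Between Lkb1-deleted and Sik-targeted tumours 0 of 15 passed, where 0.221% of genes did, 1723 genes had an unadjusted p under 0.05 and DESeq2 called 1 of the 15. Between sgSik1-3 and sgSik1 0 of 20 tested passed, by edgeR or DESeq2.

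Among the importers, Slc39a8 fell with Sik targeting. It encodes an importer of zinc and manganese that is close kin to Slc39a14 and is abundant in lung. Its level was 223, 96.0, 118 and 146 CPM in KT and 21.3, 40.0 and 33.4 CPM in Lkb1-deleted tumours. It was 8.81, 37.9 and 13.3 CPM in sgSik1 and 35.0 and 8.69 CPM in sgSik1-3, so all 8 other libraries lay below all KT libraries. With Sik targeting it fell by 2.81 on the log2 scale (SE 0.47, edgeR quasi-likelihood adjusted p = 0.00304) and passed under all 21 alternatives. With Lkb1 deletion the difference was -2.20 (SE 0.55, edgeR adjusted p = 0.0735). The sum of 10 alveolar type 2 markers, genes of the surfactant-making cells of the alveolus, was read beside it and overlapped between all groups. That sum was 24200 to 89100 CPM in KT, 15700 to 40500 in Lkb1-deleted and 10600 to 33900 in Sik-targeted tumours, with no marker at 0. In sgSik1 replicate 1 the sum was 33900 CPM, above KT replicates 2 and 3 (27300 and 24200), and Slc39a8 was 8.81 CPM. Most of that sum was 1 marker, Sftpb, which reached 29200 CPM in sgSik1. The sums of sgSik1 replicates 2 and 3 were 17600 and 11900 CPM, too low to hold that value. With Sik targeting 4 of the 10 markers fell (Cxcl15, Lamp3, Sftpc and Slc34a2) and 0 rose in edgeR, where 12.4% of all tested genes passed. The median log2 difference of the 10 was -1.27, against -0.03 for all tested genes. Mean Sftpb, 1 of the 10, was 5350 CPM in KT and 11100 in Sik-targeted tumours. The part of these markers' cells in the Slc39a8 difference was not tested.

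Slc39a4, the importer through which the gut takes up dietary zinc, rose with Sik targeting. It was 43.9, 16.8, 23.0 and 30.6 CPM in KT, 327, 53.0 and 60.2 CPM in sgSik1 and 52.0 and 98.1 CPM in sgSik1-3, with no overlap. The log2 change was 2.05 (SE 0.54, edgeR adjusted p = 0.0249), and 1.21 (SE 0.32, edgeR adjusted p = 0.0305) without sgSik1 replicate 1. The call was lost without KT replicate 2, 3 or 4 (adjusted p of 0.0954, 0.0857 and 0.0561 in edgeR) and on plain library totals (0.212, with a log2 change of 0.67). Slc39a11, another importer of the family, also rose with Sik targeting, from 4.44 ± 1.80 CPM in KT (n = 4) to 12.3 ± 2.50 (n = 5), a log2 change of 1.48 (SE 0.42, edgeR adjusted p = 0.0335) with no overlap. That call was lost without any 1 of KT replicates 2, 3 and 4, sgSik1 replicate 3 and both sgSik1-3 replicates, at edgeR adjusted p values of 0.123, 0.115, 0.0644, 0.0692, 0.0664 and 0.0536, and on plain totals at 0.399. With Lkb1 deletion the importer Slc39a2 fell by 4.16 (SE 0.95, edgeR adjusted p = 0.0468). It rests on few counts, 1.73 to 4.66 CPM in KT and 4 counts in all 3 Lkb1-deleted libraries together, and passed under 8 of 21 alternatives. It was lost without any 1 of 10 libraries, all but sgSik1 replicate 1 and sgSik1-3 replicate 1, with edgeR adjusted p values up to 0.162 (without KT replicate 3). Without KT replicates 2 and 3, the libraries in which most genes were detected, its adjusted p was 0.434, and those of Slc39a4 and Slc39a11 were 0.295 and 0.367.

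Of the 5 tested exporters 0 passed in the comparisons of genotypes, by edgeR or DESeq2, and 0 had an unadjusted p under 0.05. The same held for the 8 tested between sgSik1-3 and sgSik1. The smallest p was that of Slc30a9 for Lkb1 deletion, with a log2 difference of -0.57 (SE 0.31, edgeR adjusted p = 0.468). For Sik targeting it was that of Slc30a6, at 0.13 (SE 0.35, adjusted p = 0.854). Exporters load vesicles and the Golgi with zinc or move it out of the cell, and their median difference was -0.37 for Lkb1 deletion and -0.01 for Sik targeting.

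**Figure D4:**
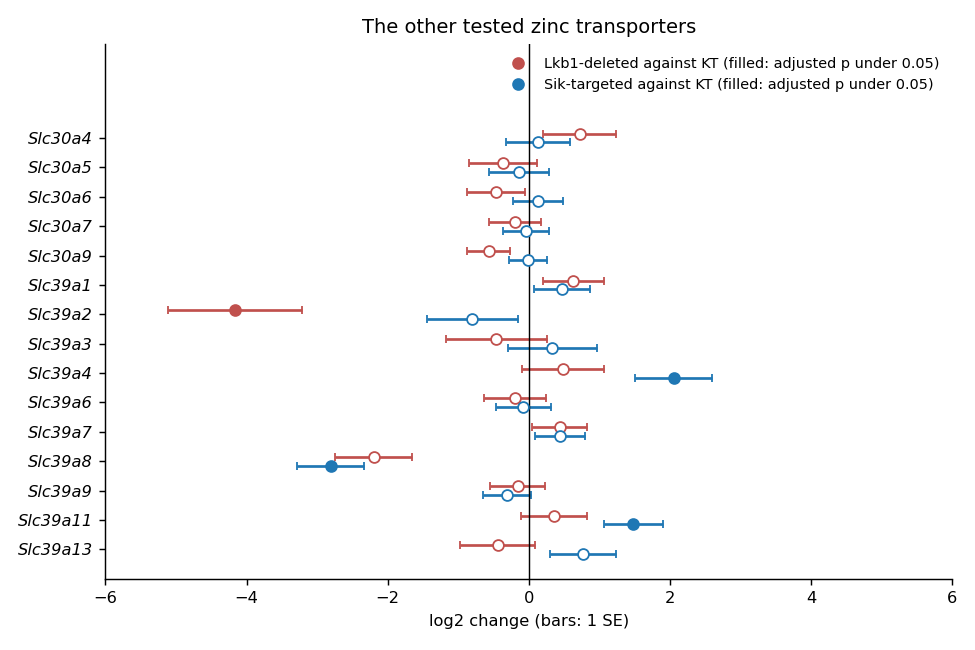
Log2 change (points) with 1 SE (bars) of the 15 other tested zinc transporters, with Lkb1 deletion and Sik targeting against KT; filled points passed an adjusted p of 0.05 in edgeR. Filled are Slc39a2 at -4.16 for Lkb1 deletion and Slc39a8 at -2.81, Slc39a4 at 2.05 and Slc39a11 at 1.48 for Sik targeting.

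Genes reported elsewhere as Mtf1 targets (7, of which 6 tested) gave 0 calls for Lkb1 deletion in edgeR, with 4 at an unadjusted p under 0.05 and 1 call by DESeq2. Ndrg1 had the smallest p there (log2 difference 1.99, SE 0.57, edgeR adjusted p = 0.116). For Sik targeting 1 rose and 1 fell, where 12.4% of all tested genes passed. Ndrg1, a stress and hypoxia gene, rose from 20.4 ± 6.89 CPM in KT to 195 ± 78.7, a log2 change of 3.25 (SE 0.56, edgeR adjusted p = 0.00367) with no overlap. Slc40a1, the iron exporter ferroportin, fell by 2.95 (SE 0.90, edgeR adjusted p = 0.0446), from 5.70 ± 2.44 CPM to 0.745 ± 0.850. It is abundant in macrophages, and the sum of 12 macrophage markers was 94.0 to 1130 CPM in KT, with 0 to 2 of the markers at 0, 13.5 to 14.9 CPM in Lkb1-deleted libraries, with 4 to 7 at 0, and 13.8 to 24.2 CPM in Sik-targeted ones, with 3 to 6 at 0. Its part in the Slc40a1 result was not tested. That call was lost without any 1 of 9 libraries, with edgeR adjusted p values up to 0.143 (without KT replicate 3), while the Ndrg1 call was lost only without KT replicates 2 and 3 together (0.0614) among 21 alternatives.

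Of 14 genes of copper and iron handling, 0 passed for Lkb1 deletion in edgeR or DESeq2, where 1.16% of all tested genes passed in edgeR, and 1 had an unadjusted p under 0.05, the copper importer Slc31a1 (-1.17, SE 0.50, edgeR adjusted p = 0.324). For Sik targeting 1 rose and 1 fell, a share near the 12.4% of all tested genes that passed. Cp, the copper-carrying ferroxidase ceruloplasmin, was 53.2, 35.7, 31.4 and 19.7 CPM in KT, 20.7, 20.5 and 8.82 CPM in Lkb1-deleted and 1.09 to 4.98 CPM in the 5 Sik-targeted libraries. With Sik targeting it fell by 3.91 (SE 0.48, edgeR adjusted p = 0.000492), and it passed under all 21 alternatives. Of the genes in these zinc, metal and stress lists it was the 1 that passed between Lkb1-deleted and Sik-targeted tumours in edgeR, higher with Lkb1 deletion by 2.84 (SE 0.49, edgeR adjusted p = 0.0272). That call held under 12 of the 21 alternatives and was lost without Lkb1-deleted replicate 2 (adjusted p of 0.144 in edgeR), and at 0.0506 to 0.103 without KT replicate 2 or 3 or any Sik-targeted library other than sgSik1 replicate 2. Atp7b, a copper-transporting ATPase, rose with Sik targeting by 1.30 (SE 0.40, edgeR adjusted p = 0.0434), in 11 of 21 alternatives. It was lost without KT replicate 2, 3 or 4 (edgeR adjusted p of 0.128, 0.145 and 0.110) and without any Sik-targeted library other than sgSik1 replicate 2 (0.0664 to 0.0921). On plain library totals it was lost too, with a log2 change of 0.21 (edgeR adjusted p = 0.699).

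Of 11 genes of the oxidative stress response, 1 rose with Lkb1 deletion, where 1.16% of all tested genes passed, and 4 with Sik targeting, where 12.4% did, and 0 fell. Nfe2l2, the master regulator of that response, rose by 1.58 (SE 0.37, edgeR adjusted p just under the threshold) with Lkb1 deletion and by 1.14 (SE 0.33, edgeR adjusted p = 0.0374) with Sik targeting. With Sik targeting Srxn1, which repairs peroxiredoxins, rose by 1.54 (edgeR adjusted p = 0.0297), Txnrd1, thioredoxin reductase, by 1.01 (0.0369) and G6pdx, which supplies NADPH, by 0.97 (0.0481). Hmox1, a haem-degrading enzyme, differed from KT by 0.48 (SE 0.34, edgeR adjusted p = 0.383). None of the 5 calls held without KT replicates 2 and 3 or on plain library totals. On plain totals Nfe2l2 differed from KT by 0.88 with Lkb1 deletion. With Sik targeting the differences there were 0.27 for Nfe2l2, 0.51 for Srxn1, -0.08 for Txnrd1 and 0.03 for G6pdx. Without KT replicate 3 alone, edgeR adjusted p was 0.213 for Nfe2l2 with Lkb1 deletion, and 0.132, 0.109, 0.128 and 0.169 for Nfe2l2, Srxn1, Txnrd1 and G6pdx with Sik targeting. These 4 calls with Sik targeting were also lost without KT replicate 2 (0.102 to 0.150) and without sgSik1-3 replicate 2 (0.0787 to 0.0823). Leaving out KT replicate 1 or 4, sgSik1 replicate 3 or sgSik1-3 replicate 1 left 1 of the 4 each time: Txnrd1 without KT replicate 1, Nfe2l2 without KT replicate 4, and Srxn1 without either of the others. G6pdx was lost as well without Lkb1-deleted replicate 3 (0.0584) and sgSik1 replicate 2 (0.0627). The Nfe2l2 call with Lkb1 deletion held without KT replicate 4, sgSik1 replicate 1 or sgSik1 replicate 2 and was lost without any other single library, at edgeR adjusted p values of 0.0645 to 0.213. Of 9 glucocorticoid-responsive genes, 0 passed for Lkb1 deletion in edgeR, with 3 at an unadjusted p under 0.05 and 2 calls by DESeq2, and Sgk1 had the smallest p (1.41, SE 0.35, edgeR adjusted p = 0.0712). For Sik targeting, where 12.4% of all tested genes passed, 1 rose, the EGFR feedback inhibitor Errfi1, by 1.60 (SE 0.43, edgeR adjusted p = 0.0262), in 14 of 21 alternatives. That call was lost without KT replicate 2, 3 or 4 or sgSik1 replicate 3, at edgeR adjusted p values of 0.0775, 0.10, 0.0592 and 0.0617. On plain library totals it was lost too, with a log2 change of 0.61 (edgeR adjusted p = 0.29).

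Of 9 tested acute-phase and interleukin-6 pathway genes, 0 passed for Lkb1 deletion in edgeR or DESeq2, and 1 had an unadjusted p under 0.05, Lbp (-0.74, SE 0.35, edgeR adjusted p = 0.379). With Sik targeting 2 fell, where 12.4% of all tested genes passed in either direction. Lcn2, an iron-withholding secreted protein, fell from 720 ± 363 CPM in KT to 132 ± 53.5, by 2.45 on the log2 scale (SE 0.42, edgeR adjusted p = 0.00351). Lbp, which binds bacterial lipopolysaccharide, fell from 159 ± 65.4 to 41.4 ± 4.53 CPM, by 1.94 (SE 0.30, edgeR adjusted p = 0.00224). Both groups were apart for both genes, and both calls held under all 21 alternatives.

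Genes of the dissociation response, which enzymatic digestion at 37 °C is known to induce along with metallothioneins, also had a higher summed level in both groups than in KT. Of 20 such genes (immediate early and heat shock genes, without Mt1 and Mt2), 7 rose with Lkb1 deletion, where 1.16% of all tested genes passed, and 10 with Sik targeting, where 12.4% did, among them Dnajb1, Klf4, Fosb and Dusp1 in both, and 0 in either without KT replicates 2 and 3. On plain library totals 2 rose with Lkb1 deletion, and 4 rose and 1 fell with Sik targeting. Their summed level was 2680 to 6030 CPM in KT, 14800 to 23500 in Lkb1-deleted and 10400 to 29300 in Sik-targeted libraries, with none at 0. The most abundant by its mean was Egr1, at 1060, 4560 and 5790 CPM in the same order. Of the heat shock genes, Dnajb1 alone passed with Sik targeting, and Dnajb1, Hspa1a and Hsp90aa1 passed with Lkb1 deletion. Means in KT, Lkb1-deleted and Sik-targeted libraries were 135, 615 and 144 CPM for Hspa1a and 42, 184 and 40.1 for Hspa1b. They were 48, 138 and 53.1 for Hsph1 and 15.6, 35.4 and 7.81 for Hspb1. For Hspa8 they were 437, 963 and 707, and for Hsp90aa1 281, 1180 and 365. The highest sum, 29300 CPM, was in sgSik1 replicate 1, the library with the highest Mt1 and Mt2. Between Lkb1-deleted and Sik-targeted tumours the median log2 difference of the 20 genes was 0.49, higher with Lkb1 deletion, with 0 of 20 passing in edgeR. Of the 20, 6 had an unadjusted p under 0.05 in edgeR and DESeq2 called 4. Mt1 and Mt2 were lower with Lkb1 deletion in this comparison. Among Lkb1-deleted libraries the highest sum, 23500 CPM, was in replicate 1, which had the lowest Mt1 and Mt2 of its group. Replicates 2 and 3 had sums of 14800 and 15200 CPM, in the same order as their Mt1 and Mt2. The summed level of 10 epithelial markers also moved, from 1090 to 1520 CPM in KT to 1670 to 2940 in Lkb1-deleted and 2050 to 6190 in Sik-targeted libraries, with none at 0. The part of either in the metallothionein differences was not tested.

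**Figure D5:**
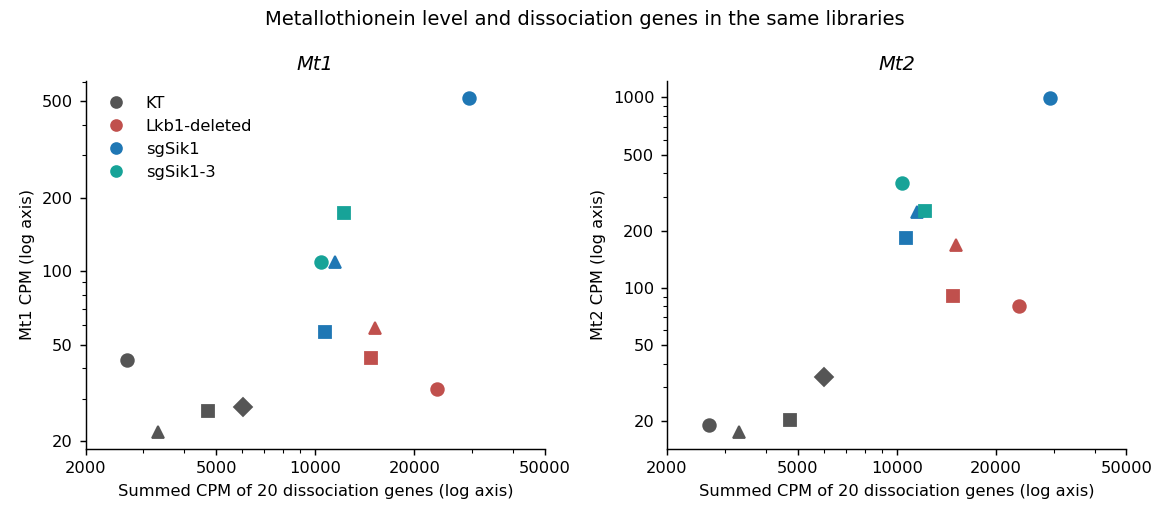
Mt1 (left) and Mt2 (right) level against the summed level of 20 dissociation-response genes, both in CPM on log axes, with 1 point per library, symbols for replicate numbers as in the plot of levels by gene. The KT libraries lie at sums of 2680 to 6030 CPM, the other 8 at 10400 to 29300 CPM, and Lkb1-deleted replicate 1 combines a sum of 23500 CPM with 32.7 CPM of Mt1.

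Across the 12 libraries, which share group and depth differences, Mt1 and Mt2 had a Pearson r of 0.89 in log2 CPM. Among the other pairs of the 6 genes r ran from -0.21 (Mt1 and Slc39a14) to 0.71 (Slc30a1 and Slc39a10). Mtf1 had an r of 0.49 with Mt1 and 0.61 with Mt2. Of 8140 other genes with a mean of at least 5 CPM, those most like Mt2 were Dusp4, a phosphatase of MAP kinases (r = 0.970), Phlda1 (0.956) and the secretory granule protein Ptprn (0.952). Most like Mt1 were the kinase Mast2 (0.968), Bsg, a partner of lactate transporters (0.954), and Fstl4 (0.950). For Slc30a1 they were Cdyl (0.935), Cpeb2 (0.854) and Mdm2 (0.842), and for Slc39a10 they included the sulfate transporter Slc26a2 (0.917) and Edem3 (0.884). For Slc39a14 they were Dfna5 (0.900), Sytl2 (0.893) and Taf7 (0.892), and for Mtf1, whose best match was weakest, D18Ertd653e (0.809), Dak (0.807) and Tpcn2 (0.803). These are the highest of many values over 12 libraries and are given as a description.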

How the data were processed

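RNA was measured in 12 libraries of sorted lung cancer cells, grouped by their titles and genotype labels. Per the labels' protocols, RNA was amplified to cDNA and sequenced in read pairs of 100 bases. Per the submitters' processing notes, STAR 2.4.2a, HTSeq (no version) and the mm10 genome were used. No source used here states the annotation or the strand setting. The authors deposited whole-number read counts per gene symbol, without molecule tags. Genes were tested in edgeR 4.0.16 (R 4.3.3) with TMM scaling, the filterByExpr filter, a robust quasi-likelihood fit and Benjamini-Hochberg adjustment over all tested genes at a threshold of 0.05. One fit held the 3 genotype groups (13575 genes) and the other the 4 titles (15303 genes). SE is the log2 change over the square root of F. The 6 genes and all lists were chosen with earlier results of these data known. List genes are named where they passed, up to 6 per list and comparison, or by the smallest p where none did, and the 3 genes most like each of the 6 by Pearson r of log2(CPM + 0.5). Some list genes with no call were named after their values were seen (Hmox1, and Slc39a8 for Lkb1 deletion). Alternatives were DESeq2 1.42.0, limma-voom (limma 3.58.1), other scalings and filters, a replicate block, and libraries left out; plain library totals were added after the data were seen. Code was tested on simulated counts. No library was a duplicate of another in its group (lowest chi-square over its degrees of freedom: 15.1). Promoter sequences are from RefSeq (GRCm38.p6) and coding sequences from GENCODE vM21. A count of 0 was read as allowing up to 3 counts. One gene that the rule on likeness to Slc39a10 would name is not reported here.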

Additional observations from a re-analysis of the deposited data

Results flagged for a closer look

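Mt1 at 516 CPM and Mt2 at 995 CPM in sgSik1 replicate 1 lay far above the other 4 Sik-targeted libraries, which were at 56.4 to 174 CPM and 182 to 357 CPM. The gap to the nearest library exceeded Dixon's 95% critical value in both cases. Of 14 sets of values checked in this way 2 exceeded it, and chance flags about 1 in 20. Both flags fell on the same library, in 2 genes with an r of 0.89, so they are not independent. Levels were checked as CPM and not on the log scale. In that library the 4 most abundant transcripts held 74.2% of counts and the TMM factor was 0.394. Per 1000000 plain counts it held 203 of Mt1 and 392 of Mt2, still the highest, next to 143 and 329 in sgSik1 replicate 3.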

How the results depend on the processing

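Each result was recomputed under 21 alternatives. On plain library totals, an alternative chosen after seeing the data, the log2 differences from KT with Lkb1 deletion became -0.16 for Mt1, 1.61 for Mt2, -0.39 for Mtf1, 0.29 for Slc30a1, -0.10 for Slc39a10 and 0.33 for Slc39a14. With Sik targeting they became 1.33, 2.93, -0.71, -0.07, 0.45 and -0.54 in the same order, and Txnrd1 became -0.08. The all-gene calls for Sik targeting became 4565 (216 up, 4349 down, against 789 and 890), and those for Lkb1 deletion 16 up and 139 down, against 83 and 75. The differences of Mt1 and Mt2 between Lkb1-deleted and Sik-targeted tumours kept their direction under all 21 alternatives, and so did those of Mt2 from KT.

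With single libraries left out, the Slc39a14 difference ran from 0.40 to 1.38 for Lkb1 deletion against KT and from -0.02 to 0.96 against Sik targeting. For sgSik1-3 against sgSik1, Mt1 ran from -1.14 to 0.80, Mt2 from -1.03 to 0.52 and Slc30a1 from -0.62 to 0.69.

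Calls over all genes for Lkb1 deletion against KT were 158, and 553 with DESeq2, 846 with no low-count filter, 49 with the replicate block, 3 without KT replicates 2 and 3, and 13 (without KT replicate 3) to 242 (without sgSik1 replicate 1) with single libraries left out. For Sik targeting against KT they were 1679, and 2526, 3654, 1050 and 98 in the same order, and 577 (without KT replicate 2) to 2655 (without Lkb1-deleted replicate 1). For Lkb1 deletion against Sik targeting they were 30, and 345, 698, 10 and 9, with 0 when only those groups were fitted, and 5 (without Lkb1-deleted replicate 3) to 710 (without Lkb1-deleted replicate 1). For sgSik1-3 against sgSik1 they were 0, and 6 with DESeq2, 44 with no filter and 0 to 4 with single libraries left out.

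Of the other zinc genes, the 1 call for Lkb1 deletion against KT became 2 with DESeq2, limma-voom, no filter or plain totals, 0 with the replicate block or without KT replicates 2 and 3, and 0 to 2 with single libraries left out. The 3 calls for Sik targeting became 6 with no filter, 1 without KT replicates 2 and 3, and 1 to 3 with single libraries left out. Between Lkb1-deleted and Sik-targeted tumours the 0 calls became 1 with DESeq2 or no filter, and 0 to 1 with single libraries left out.

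Whether replicate numbers in the titles pair the samples was not settled. Of 15 same-numbered pairs 6 had correlated deviations above 0.1, and all 15 ran from -0.375 to 0.233. Pairs with different numbers ran from -0.283 to 0.375, so the ranges overlapped. Deviations within sgSik1-3 mirror each other by construction, so pairs with that group cannot decide the question. The causes of the shifts between alternatives were not tested. At 3847760 to 13955181 counts per library, genes of a few CPM such as Slc39a2 rest on few counts.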
